A study of Gallus gallus with 6 samples.

Results

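Interferon-stimulated genes, the antiviral genes that cells switch on after sensing a virus or an interferon signal, were examined in the ileum, the final stretch of the small intestine, of chickens given a probiotic. The members were a list of 33 gene symbols looked up, without regard to case, in the symbols of an expression table of 17623 genes. The lookup matched 23 of the 33 symbols, and no symbol repeated. A minimum of 1 FPKM (fragments counted per unit of transcript length and of sequencing depth) in either group was passed by 22 of them. XAF1, a gene linked to cell death, was listed at 0 in both groups and did not pass. The lowest member that passed, RSAD2, had 7.08 FPKM in supplemented and 6.22 FPKM in control birds, so none lay near the minimum. The other 10 symbols matched no symbol of the table. Of these, 6 were found under another name through their NCBI gene number, and 4 (EPSTI1, LGALS3BP, MOV10 and USP18) were not analysed here under those names. The row counted below as USP41 is described as USP18.

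All birds were male Taiping chickens aged 2 months on the same basal feed of corn and soybean, and RNA was sequenced from the ileum. The MP group (3 libraries) drank water with 2 mL of probiotics per litre, and the CT group (3 libraries) received 0 mL. The labels name neither the probiotic strains nor how many birds each library represents. The table gives 1 value per gene and group, which the authors averaged over 3 libraries. Variation between birds is therefore unknown for every difference below, and no p-value is given.

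In vertebrates, RNA helicases and kinases in the cytoplasm detect viral RNA and start the production of interferons. Interferons bind receptors whose JAK kinases phosphorylate STAT proteins, and STAT2 acts with an interferon regulatory factor (IRF) to switch on a large set of genes. Their products block virus entry, replication or translation, and some of them feed back on the sensors and factors. Chickens lack the sensor RIG-I, and IFIH1 (MDA5) takes a larger share of RNA sensing in them. In the intestine, signals from resident microbes are known to keep part of this programme at a basal level.

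The 22 genes went both ways. In the MP mean 11 were higher and 11 lower than in CT, with a median difference of 0.01 in log2(FPKM + 1), MP minus CT. With depth-scaled counts (CPM) in place of FPKM, 10 were higher and 12 lower, the change being RSAD2. Among all 12828 genes at the same minimum, 37.7% were higher and 62.2% lower in MP, with a median of -0.07. At least 1.2-fold, 5 members (IFI6, MX1, PARP9, STAT2 and IFI35) were higher and 2 (IFIT5 and TRANK1) lower on that scale, where 11.5% of all genes were higher and 17.1% lower. At least 1.5-fold, 1 member (IFI6) was higher and 0 were lower, against a background of 2.87% and 1.97%. These counts describe the group means. In such bulk tissue, fewer cells of a type and less RNA per cell cannot be told apart.

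Split by role, the members differed in direction, beside the 37.7% of all genes higher and 62.2% lower. All 4 measured transcription factors were higher in MP (median 0.13), except that IRF1 turned to -0.01 with equal FPKM totals. Of 5 sensors, 4 were lower (median -0.12), one of which, IFIH1, turned to 0.04 with median-of-ratios scaling. Centred on all genes of like count per FPKM, 3 of 5 sensors were higher and their median was 0.04. The share to set beside that count is 49.97%, that of all genes higher after the same centring. Antiviral effectors went both ways, 4 higher and 3 lower (median 0.10). One of the 4, RSAD2, was not higher by counts, and with CPM the effector median turned to -0.03. Of the 4 regulatory enzymes 1 was higher (median -0.07), and of 2 other induced genes 1 was higher. Whether the roles differ beyond variation between birds could not be tested.

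**Figure D1:**
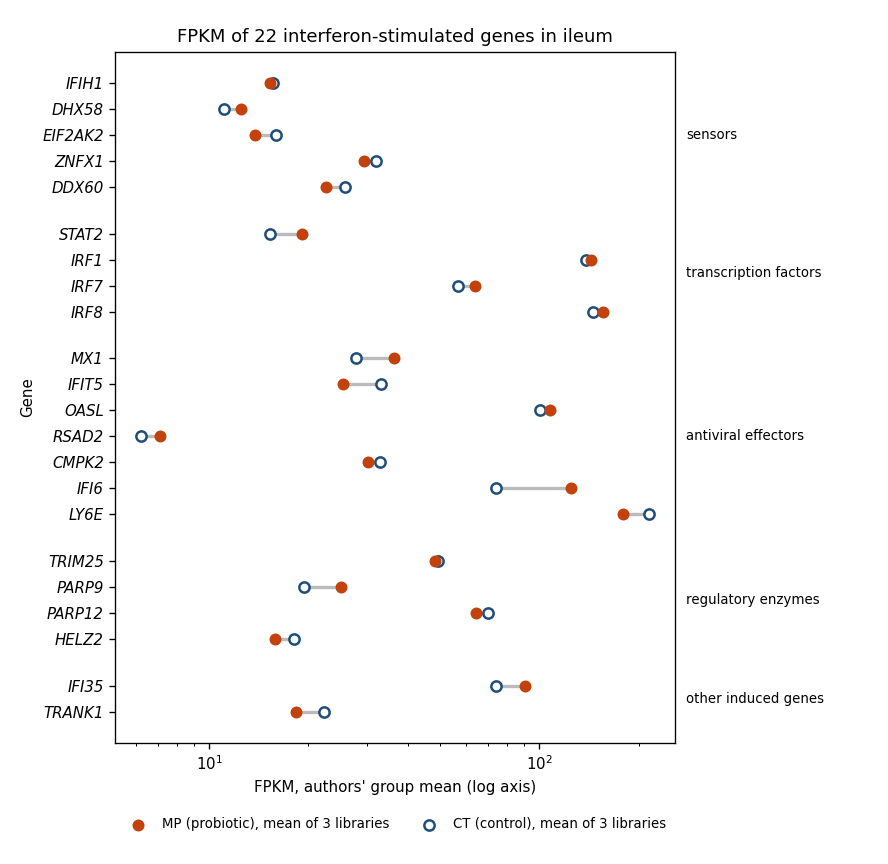
Authors' group mean FPKM (log axis) of the 22 interferon-stimulated genes, grouped by role, with filled points for MP and open points for CT, each the mean of 3 libraries. The MP point of IFI6 lies at 125 and its CT point at 73.9, the widest gap of the 22, while most other pairs nearly touch.

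The sensors were low to moderate in level and close between groups. IFIH1, the helicase MDA5 that binds long double-stranded RNA, had 15.2 FPKM in MP and 15.6 FPKM in CT. Its depth-scaled count ratio, MP over CT, was 0.989, and the exact counting interval (95%) of 0.940 to 1.04 held 1. This interval covers counting error only and holds no variation between birds. DHX58 (LGP2), a relative of IFIH1 that assists it, was the sensor with the higher MP mean, at 12.5 FPKM in MP and 11.1 FPKM in CT (0.16 in log2).

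EIF2AK2, the kinase PKR that halts translation on binding double-stranded RNA, had 13.8 FPKM in MP and 15.96 FPKM in CT. Its count ratio was 0.872 (0.823 to 0.924). DDX60, a helicase reported in human cells to promote RNA sensing, stood at 22.6 FPKM in MP and 25.8 FPKM in CT. ZNFX1, a mitochondrial RNA sensor in mammals, stood at 29.5 FPKM in MP and 32.0 FPKM in CT. These 3 lay between -0.20 and -0.12 in log2, inside the interquartile range of all genes, whose quartiles were -0.21 and 0.10.

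IRF1 and IRF8 were among the most abundant members, IRF7 lay between, and STAT2 was one of the lower ones. STAT2, the STAT protein particular to type I and type III interferon signalling, differed most of the 4, with 19.2 FPKM in MP and 15.3 FPKM in CT. Its difference was 0.31 in log2 and its count ratio 1.26 (1.19 to 1.32). IRF7, the factor that drives type I interferon genes, and in chickens also takes the part played by IRF3 in mammals, had 64.1 FPKM in MP and 56.9 FPKM in CT (0.17 in log2). The STAT2 and IRF7 differences lay above the upper quartile of all genes.

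IRF1, an activator induced by interferon gamma, had 143 FPKM in MP and 139 FPKM in CT. Its difference was 0.05 in log2. IRF8, a factor of macrophages, dendritic cells and B cells, had 156 FPKM in MP and 146 FPKM in CT. Its count ratio was 1.06 (1.04 to 1.09). Of 11 measured macrophage and dendritic cell markers, 6 were higher and 5 lower in MP, where 37.7% of all genes were higher and 62.2% lower. Their summed level was 316 FPKM in MP and 313 FPKM in CT. At least 1.2-fold, 0 of them were higher and 3 (CSF1R, TLR4 and XCR1) lower, beside 11.5% and 17.1% of all genes. Of 11 measured B and plasma cell markers, 5 were higher and 6 lower, with a summed level of 1389 FPKM in MP and 778 FPKM in CT. Nearly all of that difference was JCHAIN, which joins antibody subunits, at 1298 FPKM in MP and 687 FPKM in CT, and the other 10 markers summed to 90.8 FPKM in MP and 90.1 FPKM in CT. Of 12 markers in each of the 2 lists, 11 were in the table and all 11 passed the minimum of 1 FPKM in either group. The lowest, TNFRSF13C, had 1.17 FPKM in MP and 0.65 FPKM in CT. The part of these cells in the IRF8 level was not tested.

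Among the antiviral effectors, IFI6 had the largest difference of all 22 members. This small membrane protein, which in human cells guards against flavivirus replication, had 125 FPKM in MP and 73.9 FPKM in CT. The difference was 0.75 in log2, rank 211 from the top among all 12828 genes, and the count ratio was 1.75 (1.69 to 1.81). The 22 genes summed to 1250.3 FPKM in MP and 1200.2 FPKM in CT, and without IFI6 the sums were 1125 FPKM in MP and 1126 FPKM in CT. All 12828 genes summed to 540761 FPKM in MP and 518803 FPKM in CT, so a higher sum in MP is not particular to the members.

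MX1, a dynamin-like GTPase that traps viral nucleoprotein in mammals, had 36.2 FPKM in MP and 27.8 FPKM in CT. Its difference was 0.37 in log2 and its count ratio 1.31 (1.26 to 1.37). OASL, the oligoadenylate synthetase family member of chickens, had 108 FPKM in MP and 101 FPKM in CT (0.10 in log2). MX1 thus lay above the upper quartile of all genes by a wide margin and OASL just above it.

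IFIT5, an RNA-binding protein that in human cells recognises triphosphate ends on viral RNA, went the other way, with 25.5 FPKM in MP and 33.1 FPKM in CT. Its difference of -0.36 in log2 was the lowest of the members, with a count ratio of 0.798 (0.759 to 0.839). LY6E, a membrane-anchored protein that in mammals limits coronavirus entry, was the most abundant member, at 180 FPKM in MP and 216 FPKM in CT. Its difference was -0.26 in log2, just short of 1.2-fold, with a count ratio of 0.851 (0.830 to 0.873). MX1 and IFIT5, both commonly read as indicators of interferon activity, were therefore on opposite sides with differences of like size.

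RSAD2 and CMPK2 are next to each other in the RefSeq gene order of assembly GRCg7b and act in 1 route, in which CMPK2 supplies a nucleotide that RSAD2 (viperin) turns into a chain terminator of viral RNA synthesis. CMPK2 had 30.3 FPKM in MP and 33.0 FPKM in CT (-0.12 in log2). RSAD2 was higher in the MP mean by FPKM (0.16 in log2) but not by counts, which averaged 303 per library in MP and 333 in CT. Its depth-scaled count ratio was 0.979 (0.894 to 1.07). The gap between its FPKM ratio and its count ratio was 0.22 in log2, when 95% of genes lay between -0.06 and 0.05, and only 21 of 12826 genes had a gap as large in that direction. RSAD2 was the one member outside that range. It is among the members counted as higher by FPKM, but its direction depends on the unit.

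**Figure D2:**
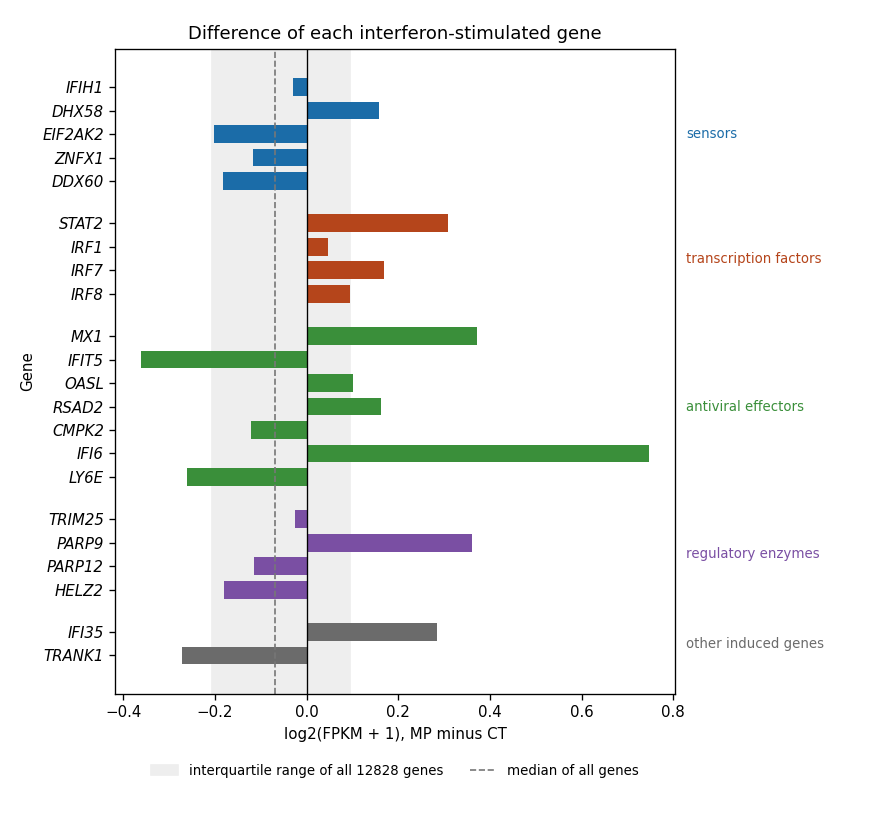
Difference in log2(FPKM + 1), MP minus CT, of each of the 22 genes, coloured by role, with the interquartile range of all 12828 genes shaded and their median of -0.07 dashed. The 4 transcription factors all lie right of 0 (IRF1 at -0.01 with equal FPKM totals), IFI6 reaches 0.75, and IFIT5 lies lowest at -0.36.

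Of the regulatory enzymes, PARP9 was the one with a higher MP mean. PARP9, which forms a complex with the ubiquitin ligase DTX3L and boosts interferon signalling in human cells, had 25.1 FPKM in MP and 19.4 FPKM in CT. Its difference was 0.36 in log2 and its count ratio 1.297 (1.24 to 1.36). DTX3L, which lies between PARP14 and PARP9 in the RefSeq order, had 29.8 FPKM in MP and 30.3 FPKM in CT. The 2 partners of the complex thus differed unequally.

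PARP12, a mono-ADP-ribosyltransferase with antiviral activity in mammals, had 64.5 FPKM in MP and 69.9 FPKM in CT (-0.11 in log2). HELZ2, a nuclear coactivator with helicase domains, had 15.9 FPKM in MP and 18.1 FPKM in CT (-0.18). TRIM25, the ubiquitin ligase that activates RIG-I in mammals, had 48.3 FPKM in MP and 49.2 FPKM in CT. Its count ratio was 0.989 (0.955 to 1.02), so that counting error alone already covered the TRIM25 difference.

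IFI35, a regulator of innate signalling, had 90.3 FPKM in MP and 73.9 FPKM in CT (0.29 in log2, count ratio 1.22, 1.18 to 1.27). A further row without a symbol carries the same gene number as IFI35, at 14.7 FPKM in MP and 14.4 FPKM in CT. IFI35 and PARP9 were the 2 members whose mean counts did not give a whole number when multiplied by 3 (within 0.002), which can happen where reads are shared out between overlapping or alike genes, so their values are less certain. TRANK1, a large ankyrin repeat protein whose antiviral role is not settled, had 18.3 FPKM in MP and 22.3 FPKM in CT (-0.27 in log2, count ratio 0.839, 0.810 to 0.869).

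Across the 22 members, the counting interval of the count ratio lay above 1 for 10, below 1 for 9 and held 1 for 3 (IFIH1, RSAD2 and TRIM25). With mean counts from 303 to 5789 per library, counting error was small beside most of these differences, and it is the unknown spread between birds that limits them. The same tally was not made over all genes, so it cannot be read as particular to these members.

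The differences were also set against transcript length. Mean count per FPKM, which rises with transcript length, had a median of 34.1 in the 11 members higher in MP and 52.8 in the 11 lower ones. The same trend ran through the whole table. When all genes were put into 10 equal bins of count per FPKM, their median difference was 0.12 in the bin of the shortest genes and -0.15 in that of the longest. In the 5 upper bins, 5 of 13 members were higher in MP, where 26.7% of all genes were, and in the 5 lower bins 6 of 9 members, where 48.6% were. Of the 5 members at least 1.2-fold higher, STAT2, PARP9 and MX1 were in the upper bins and IFI6 and IFI35 in the lower bins. Of the 2 at least 1.2-fold lower, TRANK1 was in an upper bin and IFIT5 in a lower one.

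All 4 members in the highest bin (ZNFX1, DDX60, HELZ2 and TRANK1) were lower in MP, as were 82.2% of all genes there. Set against the median of their own bin, ZNFX1 lay at 0.04, DDX60 and HELZ2 both at -0.03, and TRANK1 at -0.12. The sensors, taken relative to their bins, had a median of 0.04 in place of -0.12. Measured this way, 14 of the 22 members were higher and 8 lower, with a median of 0.10. On the same measure 49.97% of all genes were higher, and their median was 0 by construction. IFIT5 (-0.30) and LY6E (-0.28) kept their place below. IFI6 (0.79), PARP9 (0.47), MX1 (0.46) and STAT2 (0.43) kept theirs above. The part of transcript length or of RNA quality in the differences was not tested.

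**Figure D3:**
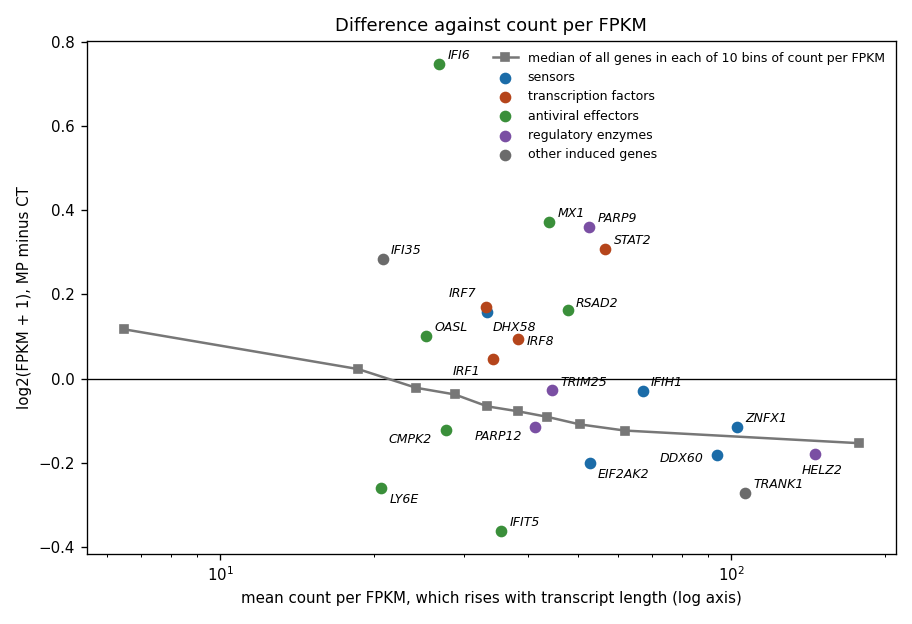
Difference in log2(FPKM + 1), MP minus CT, of each of the 22 genes (coloured points) against mean count per FPKM (log axis), with the median of all genes in each of 10 bins as grey squares. The grey line runs from 0.12 down to -0.15, and HELZ2, DDX60 and ZNFX1 lie close to it, while IFI6 lies above and LY6E and IFIT5 below.

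Searched by NCBI gene number, 6 more of the listed genes were found under another name or without a symbol. This search was added after the table had been seen. The row named IRF10 in the table, described there as interferon regulatory factor 9 and called IRF9 by RefSeq, had 36.2 FPKM in MP and 27.8 FPKM in CT. Its difference was 0.37 in log2 and its count ratio 1.29 (1.22 to 1.37), beside 0.31 and 1.26 for STAT2. With it, 5 of 5 transcription factors were higher in MP, beside 37.7% of all genes.

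SAMD9L, a restriction factor for poxviruses in mammals, had 5.82 FPKM in MP and 9.47 FPKM in CT. At -0.62 in log2 and a count ratio of 0.636 (0.594 to 0.680), it lay lower than any of the 22. IFI27L2, named IFI27L1 in the table and a relative of IFI6, had 119 FPKM in MP and 107 FPKM in CT (0.15 in log2). The RNA-editing enzyme ADAR, which marks self RNA so that IFIH1 ignores it, had 32.8 FPKM in MP and 36.4 FPKM in CT (-0.14).

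USP41, a row described as the deISGylase USP18, the brake on interferon receptor signalling, had 18.4 FPKM in MP and 18.7 FPKM in CT. Its count ratio was 1.01 (0.952 to 1.07). PARP14, a large ADP-ribosyltransferase, has 2 rows with the same gene number. One had 46.5 FPKM in MP and 47.5 FPKM in CT, and the other had 47.8 FPKM in MP and 39.0 FPKM in CT, so the rows differ in direction, and reads could be shared between them. With these 6 genes, 13 of 28 were higher and 15 lower, with a median of -0.02. By role, 5 of 5 transcription factors, 5 of 9 effectors and 1 of 7 regulatory enzymes were higher. Among all genes 37.7% were higher and 62.2% lower, with a median of -0.07. PARP14 was counted here by its first row, which has the higher mean level and is lower in MP. Its other row, at 0.29 in log2, would have been counted as higher.

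The interferons themselves were near the limit of measurement. None of the 17 rows described as an interferon gene reached 1 FPKM in either group, and 3 were listed at 0 in both. The highest, type I interferon genes of the IFNA family that are near-identical copies, stood at 0.667 FPKM in MP, against 0.243 or 0.580 FPKM in CT, depending on the copy. Several copies carry identical values, so reads could be shared between them. IFNG, the interferon of T cells and natural killer cells, had 0.323 FPKM in MP and 0.467 FPKM in CT, from mean counts of 7 and 11 per library, and its count ratio of 0.685 had an interval of 0.377 to 1.22. All 12 measured T and natural killer cell markers were lower in the MP mean, beside 62.2% of all genes, though GZMA was nearly equal (-0.002 in log2). Their summed level was 767 FPKM in MP and 883 FPKM in CT. The part of cell composition in the IFNG value was not tested.

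Of a list of 90 further symbols of the interferon pathway, 58 were in the table and 55 passed the minimum. In MP 20 were higher and 34 lower, with a median of -0.05, a share close to that of all genes. With median-of-ratios scaling 33 were higher and 22 lower, when 49.8% of all genes were higher. The row named IRF10 is on this list too. JAK1, the kinase shared by all interferon receptors, had 80.5 FPKM in MP and 106 FPKM in CT (-0.40 in log2). The kinase TYK2 (0.13) and STAT3 (0.14), which also serves interleukin signals, were higher by small steps.

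The receptor subunits differed little. IFNAR1 had 15.1 FPKM in MP and 15.7 FPKM in CT, and IFNAR2 had 19.0 FPKM in MP and 21.6 FPKM in CT. For interferon gamma, IFNGR1 had 27.6 FPKM in MP and 26.8 FPKM in CT, and IFNGR2 had 49.5 FPKM in MP and 53.8 FPKM in CT. JAK2, the kinase on the interferon gamma receptor, lay at -0.19 in log2. The receptor genes thus stayed within 0.18 in log2 of equality in either direction.

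At least 1.5-fold on the log2(FPKM + 1) scale, 2 of the 55 pathway genes (3.64%) were higher and 0 lower, near the 2.87% and 1.97% of all genes. By the plain FPKM ratio 2 more passed, ISG20, an exonuclease, at 9.30 FPKM in MP and 6.05 FPKM in CT, and TLR7, a receptor for single-stranded RNA, at 3.77 FPKM in MP and 5.76 FPKM in CT. SOCS3, which curbs JAK signalling mainly downstream of interleukin receptors, had 67.0 FPKM in MP and 32.7 FPKM in CT. IFITM1, a membrane protein that blocks fusion of virus with the cell, had 687 FPKM in MP and 457 FPKM in CT, a count ratio of 1.51 (1.48 to 1.55). Its relatives were lower, with IFITM3 at 612 FPKM in MP and 735 FPKM in CT, and IFITM5, a bone protein in mammals, at 7.80 FPKM in MP and 9.85 FPKM in CT. The abundant IFITM genes therefore went both ways, as the effectors did. These genes are alike in sequence, and reads could be shared between them.

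**Figure D4:**
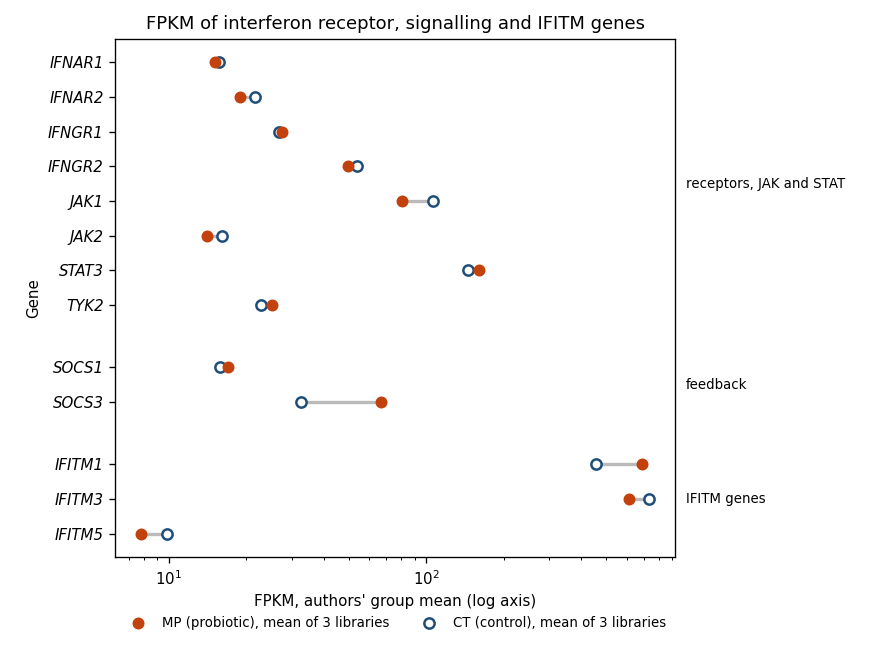
Authors' group mean FPKM (log axis) of interferon receptor, JAK and STAT genes, SOCS genes and IFITM genes, with filled points for MP and open points for CT, each the mean of 3 libraries. SOCS3 and IFITM1 lie higher in MP, JAK1 lower, and the receptor pairs almost coincide.

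The annotation that came with the table placed 9 of the 22 members (40.9%) under the term defense response to virus, a term held by 0.405% of all 12828 genes. It placed 7 of them (IFIH1, EIF2AK2, STAT2, IRF7, MX1, RSAD2 and TRIM25) in the KEGG pathway for influenza A and 4 (IFIH1, DHX58, IRF7 and TRIM25) in that for RIG-I-like receptor signalling. Those pathways held 0.850% and 0.327% of all genes. The members were listed as interferon-stimulated genes, so these shares follow from the choice of list. The members of the influenza pathway were themselves split, with STAT2, IRF7 and MX1 higher, EIF2AK2 lower, and IFIH1, TRIM25 and RSAD2 within counting error. The direction of RSAD2 depends on the unit, as above.

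As a check of the tissue, FABP6, a carrier of bile acids in ileal enterocytes, had 2669 FPKM in MP and 4081 FPKM in CT, and 10 of 12 enterocyte markers passed the minimum. Of these 10, 7 were higher in MP and 3, FABP6 among them, lower, with a median of 0.08. Among all genes 37.7% were higher and 62.2% lower, with a median of -0.07. Smooth muscle and fibroblast markers were lower in the MP mean for 10 of 10 genes each, with medians of -0.42 and -0.53, and endothelial markers for 10 of 10 (-0.28). The part of tissue composition in the differences of the interferon-stimulated genes was not tested.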

How the data were processed

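Per the file headers, the authors deposited 1 FPKM value and 1 estimated count for each gene and group, and no values per library. The values end as means of 3 numbers do. The mean counts summed to 15928865 per library in MP and 17150865 in CT. Tools named in the submitters' processing notes, without their roles, are HISAT2, StringTie 1.3.1, fastp 0.18.0, DESeq2 and Bowtie2. No build is named in the labels or headers, and coordinates were left out. Per the labels' protocols, libraries were made with a small RNA kit, although the table covers messenger RNA genes. Another 4 columns of the table, of groups outside these samples, were not used.

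Differences are log2(FPKM + 1), MP minus CT, which understates those of low genes. For count ratios, mean counts were multiplied by 3, rounded and divided by the depth ratio of 0.929, with exact Clopper-Pearson intervals (scipy 1.17.1); reads without molecular identifiers are not independent molecules. The steps were tested on simulated counts that held counting error only. These held no variation between birds, no trend with transcript length and no gap between FPKM and counts, so the test says nothing about those limits. Members, roles, gene lists and folds were chosen with earlier results of these data known. All members were named; of the pathway list, the interferon, receptor, JAK and STAT genes and those past 1.5-fold (some single values are not reported here), with SOCS and IFITM genes and DTX3L added after their values were seen. Gene numbers were matched to the RefSeq gene table of GRCg7b. Planned count tests could not be run on group means, and promoter sequences were not analysed here.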

Additional observations from a re-analysis of the deposited data

How the results depend on the processing

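No paired analysis was possible because each group has a single mean per gene. Leaving out libraries, edgeR and DESeq2 were not run, for want of values per library. The search by gene number and the centring on the bins of count per FPKM were chosen after seeing the data. Of 220 recomputed differences of single members, 175 moved by less than counting error and 45 by more. All 45 came from median-of-ratios scaling, equal FPKM totals, CPM and centring on bins. Most of the 175 came from settings that could not move a value or barely did, pseudocounts of 0.1 and 0.5 among the latter. Of the 7 members past 1.2-fold, 0 changed sign, which was nearly fixed in advance. Scaling shifted the median of all genes by at most 0.07, and the bin medians lay only between -0.15 and 0.12. Dropping the minimum, a minimum of 5 FPKM, summing rows of a symbol and the search by gene number cannot change any member's value. These settings therefore say nothing about how stable single members are. In all, 17 members kept their side of 0 under every alternative; IFIH1 and TRIM25 (median-of-ratios scaling, and centring on bins), ZNFX1 (centring), IRF1 (equal FPKM totals) and RSAD2 (CPM) did not. Members higher in MP ranged from 10 of 22 (equal FPKM totals, CPM) to 14 of 22 (centring). Of all genes, 30.1% were higher with equal FPKM totals, 37.9% with CPM and 49.97% with centring. Scaling shifted the median over all genes by at most 0.07.

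With median-of-ratios scaling the medians were 0.087 for members, 0.209 for transcription factors, 0.178 for effectors, -0.042 for sensors, 0.0054 for regulatory enzymes, 0.081 for other induced genes and 0.026 for the pathway list, of which 33 were higher and 22 lower; 1 member was 1.2-fold lower. With equal FPKM totals they were -0.048, 0.074, 0.043, -0.174, -0.129, -0.051 and -0.104 in the same order. At that setting 3 members were 1.2-fold higher, beside 8.71% of all genes. With CPM the effector median was -0.029, set by RSAD2, and 1 member was 1.2-fold lower. The share of all genes 1.2-fold lower was not computed for CPM or median-of-ratios scaling, so neither count can be set beside it. Centred on bins, the medians were 0.103 for members, 0.204 for transcription factors, 0.037 for sensors, 0.021 for regulatory enzymes, 0.072 for other induced genes and 0.067 for the pathway list (33 higher, 22 lower). With this centring 49.97% of all genes were higher. With the genes found by number, 1 gene (SAMD9L) was 1.5-fold lower, beside 1.97% of all genes. Median-of-ratios scaling and equal FPKM totals each move every gene by 1 factor, which is why their medians move together. CPM and centring on bins do not use 1 factor, and their medians moved by unequal amounts.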
